A study of Ovis aries with 40 samples.

Results

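The step from late gestation to birth in Ujumqin sheep, a fat-tailed breed, was followed in longissimus dorsi, the long muscle of the back. It was taken as the 3 arrays whose titles give Ujumqin and day 0 after birth against the 3 whose titles give Ujumqin and day 135 of gestation, which makes 6 of the 40 arrays of the series. No measured value was used to choose them. The series sampled Ujumqin muscle at 5 fetal stages, at birth and at 1 and 2 months, and Texel muscle at the fetal stages only, to follow muscle development in both breeds. All 3 fetuses at 135 d were female by label, and at birth replicates 1 and 2 were female and replicate 3 was male. The purebred ewes had been synchronized with a progesterone insert and gonadotropin and inseminated artificially with semen of their own breed, and fetuses were taken by caesarean section. The protocol does not say separately how the animals at birth were obtained, and their descriptions still call the muscle fetal. The labels name no dam, so whether animals shared one is unknown. Muscle was snap frozen, and RNA of each animal was labelled with Cy3 and hybridized to its own Agilent sheep array.

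Before birth, skeletal muscle lives on glucose and lactate supplied across the placenta, does little sustained work and is still laying down its contractile and connective tissue. At birth the animal must stand, breathe, keep warm and burn the fat of colostrum and milk, while cortisol and thyroid hormone surge. Genes of fatty acid transport and oxygen storage, of hormone action, of protein turnover, of connective tissue and of immune defence are among the groups described, each from a list of genes. The groups and lists were chosen with earlier results of these data known.

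Each array held 15208 spots other than controls, for 15008 probes. At birth the median processed signal was 347, 359 and 327 in replicates 1 to 3, against 271, 308 and 292 at 135 d (exact permutation test, two-sided p = 0.1, the smallest that 3 against 3 can give). The net signal of the negative control spots was also higher at birth, at 28.7, 25.9 and 21.6 against 17.6, 16.6 and 17.5 (exact permutation p = 0.1). The share of spots marked by the scanner software as well above background was 86.4%, 79.3% and 86.4% at birth and 83.8%, 85.4% and 85.4% at 135 d. The part of these differences in the results was not tested. After all 40 arrays had been brought to the same distribution, log2 signals correlated across probes between 0.97 and 0.982 among the birth arrays, between 0.985 and 0.987 among the 135 d arrays and between 0.943 and 0.958 across the groups. Probes are not independent replicates, and the number of arrays limits the precision of every value.

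The birth arrays all lie on slide 1 and the 135 d arrays all on slide 5, so within the 6 arrays stage and slide cannot be told apart. Some other groups were split between slides, which allows a fit of all 40 arrays with slide as a term. Its standard errors are wider, with a median of 0.782 against 0.25 log2 units over the called probes. Its values are given beside those called genes that are named below. Slide 1 also holds 5 Texel arrays of 70 and 85 d, which differ from the lambs in age and breed, and slide 5 holds 2 Texel arrays of 135 d and the 3 Ujumqin arrays of 2 months. No group lies on both slide 1 and slide 5, so the slide term links them in steps. The groups that link them are Texel of 85, 100, 120 and 135 d and Ujumqin of 100 d. Each has only 1 array on 1 of its 2 slides, so values with the slide term lean on single arrays.

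Tested were the 13579 probes that at least 1 of the 6 arrays marked as well above background, and 2646 passed the test, which asks for a limma p adjusted over all tested probes under 0.05 and a change of at least 2-fold. That is 19.5%, with 1417 higher at birth (10.4%) and 1229 lower (9.05%). Among the 861 tested genes with a name, each represented by 1 probe, 138 were higher at birth (16%) and 80 lower (9.29%), or 25.3% in all. The split of the calls depends on the scaling: after division of the arrays by their own 75th percentile 72.7% of called probes were higher at birth, against 53.6% here. That scaling moves the probes' differences up by a median of 0.211 log2 units, and differences are given relative to the quantile scale, on which the median was -0.016 over all tested probes and 0.086 over named genes. With the slide term 132 probes were called higher and 81 lower, and 2407 of the 2646 called probes (91.0%) had the same sign. Birth and 135 d arrays did not overlap in 7580 of the tested probes (55.8%) and in 2598 of the 2646 called ones, so groups that stand apart are the rule among called genes. At 4-fold or more there were 206 higher and 187 lower probes, and at 8-fold or more 37 and 27. Of the called probes 2307 carry no gene name, so the groups below describe the named minority of the array. The counts of each list are to be read beside the shares of 16% higher and 9.29% lower.

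**Figure D1:**
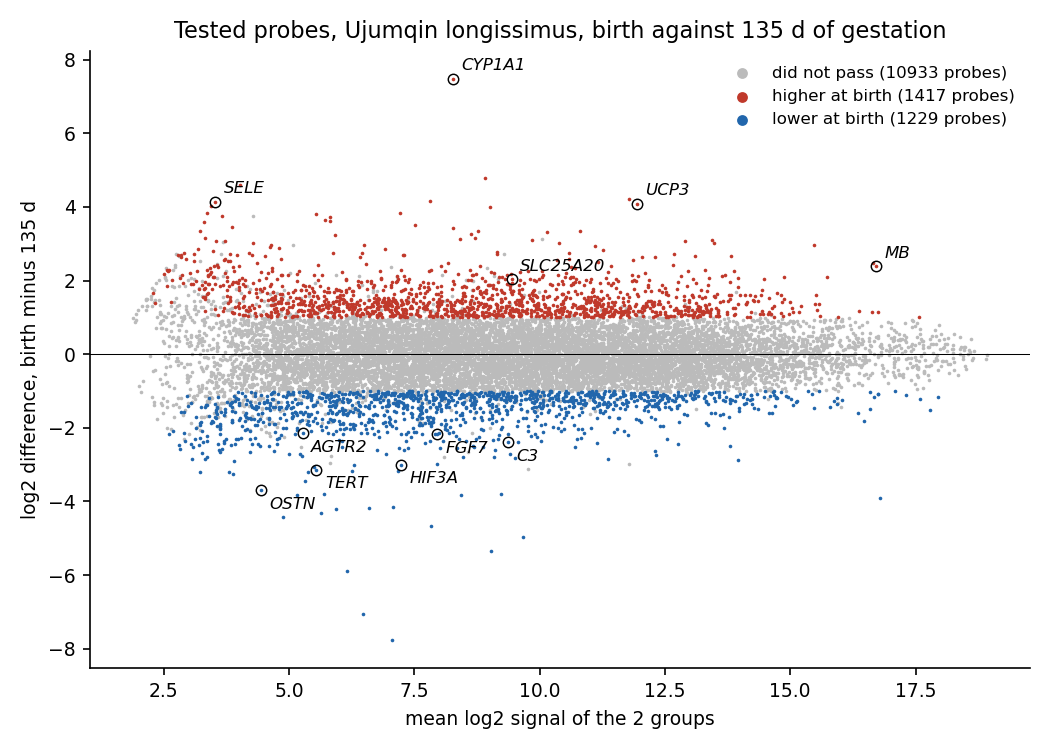
Each point is 1 of 13579 tested probes, placed by the mean log2 signal of both groups and by the log2 difference of birth minus 135 d. The 1417 probes called higher (red) and 1229 called lower (blue) span the whole range of signal. As plotted, the circled genes run from 7.48 for CYP1A1 to -3.70 for OSTN. No birth array was well above background for OSTN, so its fall is known only as at least 4.76-fold.

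Genes of fatty acid use and oxygen storage rose or did not pass. Of the 11 tested genes of mitochondrial oxidation and fatty acid use, 3 rose at birth, none fell and 8 did not pass, with a median difference of 0.40. Among all named genes 16% were higher and 9.29% lower. The 3 were UCP3, a mitochondrial carrier of muscle whose level follows fatty acid supply, MB, the oxygen-binding myoglobin, and SLC25A20, the carrier that brings acylcarnitines into mitochondria for oxidation. UCP3 read 13.83, 14.45 and 13.69 on the log2 scale at birth against 8.66, 10.81 and 10.21 at 135 d. It rose 17.1-fold (log2 difference 4.09, SE 0.469, adjusted p = 1.69e-04). The groups were far apart, with the lowest birth array well over the highest fetal one, and the second UCP3 probe gave 4.23. MB read 18.03, 17.50 and 18.20 against 14.80, 16.06 and 15.69, a rise of 5.25-fold (2.39, SE 0.296, adjusted p = 2.50e-04). SLC25A20 read 10.36, 10.63 and 10.41 against 8.09, 9.01 and 8.17 and rose 4.12-fold (2.04, SE 0.218, adjusted p = 1.25e-04). For all 3 genes the birth arrays were uniform and the fetal arrays spread more widely, with 135 d replicate 2 the highest of the fetuses each time. The other 8 members lay between -0.43 and 0.93.

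In the fit with slide as a term, SLC25A20 differed by 3.25 (adjusted p = 5.39e-04) and MB by 2.81 (adjusted p = 0.0445), both still called, and UCP3 by 6.21 (adjusted p = 0.0572), which missed the threshold. The second MB probe, which shares 59 bases with the first, differed by 2.48 without the term and by 2.30 with it (adjusted p = 0.112), so the MB call with the term holds on 1 of its 2 probes. The 60-base probes behind UCP3 and SLC25A20 are shown because these readings carry the group.
UCP3: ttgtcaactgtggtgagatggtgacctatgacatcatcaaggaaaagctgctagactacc
SLC25A20: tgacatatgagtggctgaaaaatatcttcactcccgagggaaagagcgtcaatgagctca

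**Figure D2:**
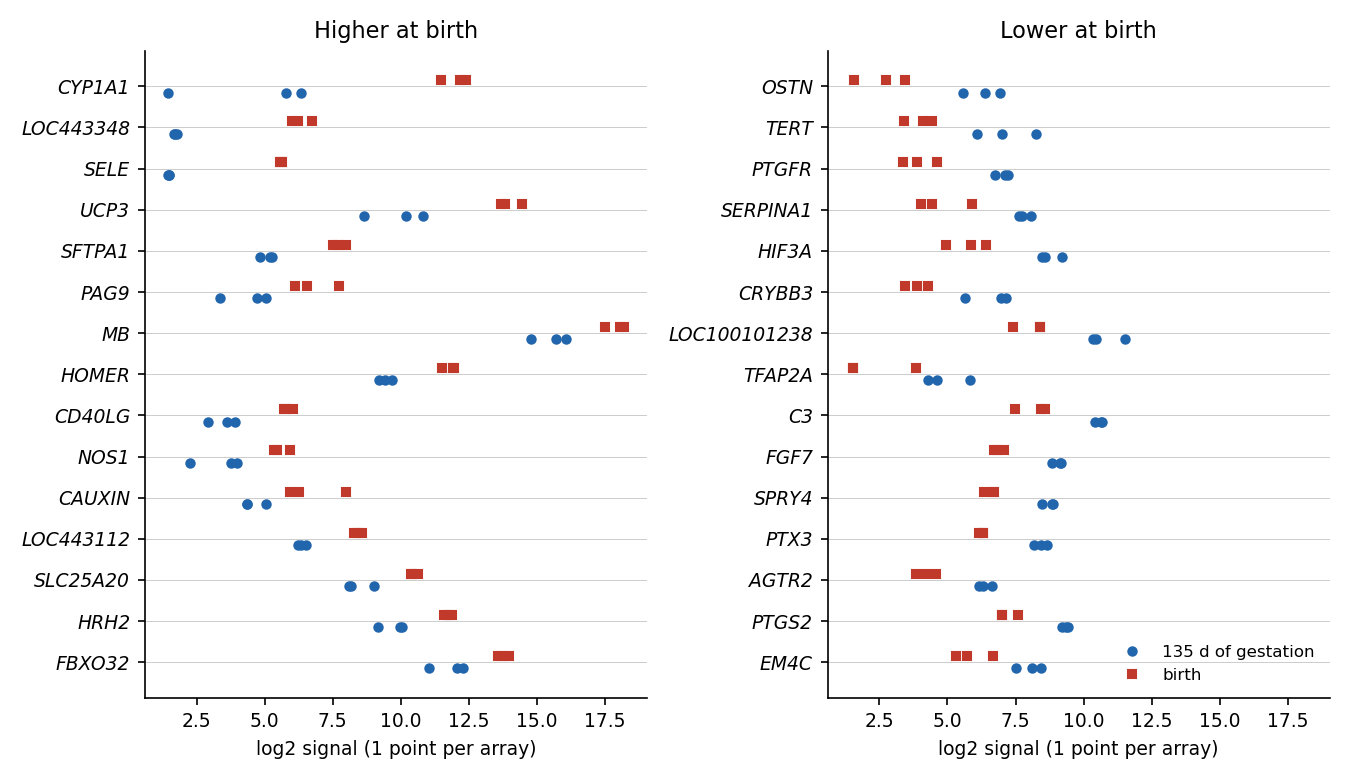
Log2 signal of each of the 3 birth arrays (red squares) and the 3 arrays of 135 d (blue circles) for the 15 named genes with the largest rise and the 15 with the largest fall. No pair of groups overlaps, which the choice of genes required, and the spread within a group is widest for CYP1A1 at 135 d, from 1.44 to 6.35.

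Glucose handling moved both ways. Of 11 tested genes of glycolysis and glycogen, 2 rose, 2 fell and 7 did not pass, with a median of 0.20. The 2 that rose are enzymes of working muscle: PFKM, the muscle phosphofructokinase that commits sugar to glycolysis, and PYGM, the muscle phosphorylase that releases sugar from glycogen. PFKM read 14.63, 14.47 and 13.97 at birth against 12.63, 13.05 and 12.49 (3.10-fold, SE 0.193 log2 units, adjusted p = 2.03e-04), and PYGM 16.35, 16.44 and 16.18 against 14.24, 15.12 and 14.78 (3.04-fold, SE 0.245, adjusted p = 6.80e-04). The 2 that fell are glucose transporters of the plasma membrane that work without insulin, SLC2A1 and SLC2A3. SLC2A1 read 5.38, 4.47 and 5.41 against 7.61, 6.80 and 6.95 (-2.03, SE 0.317, adjusted p = 7.67e-04). SLC2A3 read 12.60, 12.57 and 12.83 against 14.40, 14.77 and 14.87 (-2.01, SE 0.484, adjusted p = 0.0076). Birth and fetal arrays were separate for all 4 genes, as in nearly all called probes. Under the slide term, PFKM kept its call (2.24, adjusted p = 0.0401), and PYGM (2.25, adjusted p = 0.095), SLC2A1 (-1.86, adjusted p = 0.333) and SLC2A3 (-1.90, adjusted p = 0.455) kept their sign only. MDH, a malate dehydrogenase whose form the files do not state, which stands outside the lists and was picked after its values were seen because it passed with the slide term as well, read 15.03, 14.70 and 14.69 against 12.79, 13.60 and 13.20 (1.61, SE 0.206, adjusted p = 2.88e-04; 2.88 with the slide term). Its second probe was called without the term (1.51) and not with it (2.22, adjusted p = 0.0887).

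The labelled tissue bears its markers. Of 7 tested skeletal muscle markers 3 rose, none fell and 4 did not pass, with a median of 0.92, and the summed signal of the 7 was 1240000, 1080000 and 1300000 at birth against 975000, 1070000 and 1010000 at 135 d. MB was among the 3, beside MYH1, a fast myosin heavy chain, and MYOG, the factor that drives myoblasts to differentiate. MYH1 read 15.27, 15.03 and 15.02 at birth against 14.12, 13.96 and 13.93, a rise of 2.15-fold (SE 0.213, adjusted p = 0.00245) with tight and separate groups. The adjacent fast isoform MYH2 differed by 0.92 (1.89-fold, adjusted p = 0.00332), short of the fold minimum here and past it with the 75th percentile scaling (1.1), and the slow isoform MYH7 by 0.59 (adjusted p = 0.0569). Among all 7 tested contractile genes MYH1 alone passed, and the others lay between -0.26 and 0.92. Allowing for slide, MYH1 differed by 0.41 (adjusted p = 0.857). In bulk muscle, fewer cells of a type and less RNA per cell cannot be told apart, here or in any group below.

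Regulators of muscle formation moved both ways. Of 7 tested, 1 rose, 1 fell and 5 did not pass, with a median of -0.61, where 25.3% of all named genes passed. MYOG read 11.54, 11.15 and 11.23 at birth against 9.49, 10.18 and 9.61 (1.55, SE 0.233, adjusted p = 6.42e-04), but its second probe, which shares a run of 41 bases with the first, gave -0.08. FST, follistatin, which binds and blocks myostatin, read 13.66, 12.50 and 13.63 against 14.75, 14.55 and 14.34 (-1.28, SE 0.329, adjusted p = 0.0106). Its fall rests on birth replicate 2, without which the difference was -0.90 and under the fold minimum. With the slide term MYOG differed by 2.43 (adjusted p = 0.0916) and FST by -0.82 (adjusted p = 0.59).

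The growth factor axis had a negative median and 1 call. Of 10 tested genes of the insulin-like growth factor and growth hormone axis 1 fell, none rose and 9 did not pass, with a median of -0.62. IGFBP6, a binding protein that prefers IGF2, read 14.17, 13.90 and 14.32 at birth against 15.59, 14.95 and 15.45 (-1.20, SE 0.228, adjusted p = 0.00221). The groups did not overlap, yet with the slide term the difference was 0.01 (adjusted p = 0.995), and -0.85 on its second probe (adjusted p = 0.573). IGFBP3 (-0.96, adjusted p = 0.0131) and IGF1 (-0.88, adjusted p = 0.00386) missed only the fold minimum, and IGFBP3 was past it with the 75th percentile scaling (-1.06). The fetal growth factor IGF2 read 16.50, 16.72 and 16.89 against 17.47, 16.80 and 17.25 (-0.47, SE 0.248, adjusted p = 0.149). Of 3 tested imprinted genes CDKN1C fell and the others, IGF2 and BEGAIN (-0.34, adjusted p = 0.163), did not pass, with a median of -0.47. The second BEGAIN probe, which shares 59 bases with the first, passed (adjusted p = 0.00182) with no birth array well above background, a fall of at least 1.24-fold.

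CDKN1C, an imprinted inhibitor of cyclin-dependent kinases that slows the cell cycle, was the 1 cell cycle gene of 13 tested that passed. It read 13.24, 13.02 and 13.12 at birth against 14.49, 14.37 and 14.52, a fall of 2.52-fold in size (-1.33, SE 0.146, adjusted p = 1.30e-04). Both groups were tight and the gap between them was several times their spread. It fell with the slide term as well (-2.45, SE 0.544, adjusted p = 0.019). The median of the 13 cell cycle genes was 0.011, close to that of all probes, with CDK1, the mitotic kinase, at 0.78 (adjusted p = 0.113) and CCND2 at -0.68 (adjusted p = 0.0164). Of 23 ribosomal proteins and translation factors 1 rose and 22 did not pass, with a median of -0.18. The 1 was RPS15, a part of the small ribosomal subunit (1.38, SE 0.152, adjusted p = 1.38e-04). With the slide term RPS15 differed by 1.75 (adjusted p = 0.321). Its probe was dim, at 8.3, 8.3 and 8.5 at birth against 6.7, 7.0 and 7.2. A second RPS15 probe was not well above background on any of the 6 arrays. Whether the brighter probe reads RPS15 was not tested. EEF1A1, the main elongation factor, read 13.4, 13.6 and 13.4 at birth. It stood just short of the fold minimum at -0.99 (adjusted p = 0.00942), past it with the 75th percentile scaling (-1.01). None of 12 tested immediate early and heat shock genes passed with limma in either direction, with a median of 0.14. HSPA1A, a heat shock protein, gave 1.09 (adjusted p = 0.0692) and passed in a fit of all 40 arrays (adjusted p = 0.0335), with sex as a covariate (adjusted p = 0.0414) and without birth replicate 3 or 135 d replicate 2. At an unadjusted p under 0.05, 3 of the 12 passed in limma, 1 of them at 2-fold or more, and none passed at 2-fold by the unequal variance test of the study's methods. FOS, the early response factor, spread widely at birth, at 8.55, 7.73 and 5.63 against 5.72, 6.61 and 6.36.

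Hormone action showed 3 rises and 1 fall among 20 tested genes of steroid, thyroid and stress hormones, with 16 that did not pass and a median of 0.070. THRB, the beta thyroid hormone receptor, read 10.01, 10.15 and 10.75 at birth against 8.08, 8.46 and 8.63, a rise of 3.77-fold (SE 0.219, adjusted p = 1.66e-04). LEP, the adipokine leptin, read 8.21, 8.19 and 8.22 against 6.64, 6.97 and 6.64 (2.74-fold, SE 0.135, adjusted p = 7.05e-05). ESR2, the beta estrogen receptor, was the other that rose (1.33, SE 0.289, adjusted p = 0.00454), and its sign turned with the slide term (-1.13, adjusted p = 0.547). AGTR2, the angiotensin receptor typical of fetal tissues, read 3.85, 4.58 and 4.20 at birth against 6.62, 6.16 and 6.29, a fall of 4.44-fold in size (-2.15, SE 0.334, adjusted p = 7.54e-04). Only 1 of the 3 birth arrays was well above background for AGTR2, while all 3 fetal arrays were. Its mean had declined through the fetal stages, from 10.18 at 70 d to 7.48 at 120 d and 6.36 at 135 d. At 1 month it stood at 6.18 again (1.97 over birth, adjusted p = 0.00474). With the slide term THRB differed by 1.76 (adjusted p = 0.172), LEP by 0.12 (adjusted p = 0.96; -0.70 on its second probe) and AGTR2 by -2.30 (adjusted p = 0.195).

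Detoxifying enzymes held the largest named rise. Of 10 tested antioxidant and detoxifying genes 3 rose, none fell and 7 did not pass, with a median of 0.89. CYP1A1, the cytochrome P450 induced through the aryl hydrocarbon receptor, read 12.38, 12.16 and 11.49 at birth. At 135 d it read 6.35, 1.44 and 5.80, and replicate 2 was not well above background. The rise was 179-fold as fitted (7.48, SE 1.461, adjusted p = 0.00261), and without 1 array at a time it stayed called and lay between 5.94 and 8.39. All 3 animals at birth were far above all 3 fetuses, but the size rests on a fetal group that is itself very uneven. The slide mates of the fetuses, 2 Texel arrays of 135 d, read 7.11 and 10.96. In the fit with slide as a term, the difference was 11.44 (SE 3.921, adjusted p = 0.124). MT3, a metallothionein that binds zinc and copper, rose 2.72-fold (SE 0.238, adjusted p = 0.00106), and GSTA1, a glutathione transferase, 2.18-fold (SE 0.297, adjusted p = 0.0119). The GSTA1 call was lost without birth replicate 1 (0.94) or without 135 d replicate 1 (0.88). The slide term left 0.90 for MT3 (adjusted p = 0.645) and 2.04 for GSTA1 (adjusted p = 0.183). A second GSTA1 probe rose by 1.95 and was called with the slide term as well (4.33, adjusted p = 0.0114).

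Protein breakdown rose in 4 of its 14 tested genes and fell in none, with 10 that did not pass and a median of 0.79. FBXO32, the ubiquitin ligase atrogin-1 that marks muscle proteins for the proteasome, read 13.96, 13.57 and 13.73 at birth against 12.06, 12.27 and 11.05 (3.89-fold, SE 0.46, adjusted p = 0.00668). SQSTM1, an adaptor that carries ubiquitin-marked cargo to autophagy, read 13.26, 13.13 and 13.37 against 11.52, 12.40 and 11.94 (2.46-fold, SE 0.227, adjusted p = 0.00141). PSMD4, a ubiquitin receptor of the proteasome, rose 2.41-fold (SE 0.184, adjusted p = 5.34e-04) and CAPNS1, the small calpain subunit, 2.27-fold (SE 0.157, adjusted p = 3.35e-04). The 4 genes cover ubiquitin transfer, the proteasome, autophagy and calpain, and in each of them all birth arrays were above all fetal arrays, as in nearly all called probes that rose. Under the slide term, they differed by 0.65, 1.26, 1.08 and 1.35 in that order, none of them called. Amino acid metabolism had 2 rises, 1 fall and 6 that did not pass among 9 tested, with a median of 0.66. GLUD1, glutamate dehydrogenase, rose by 1.04 (adjusted p = 0.0153) and PSPH, of serine synthesis, by 1.01 (adjusted p = 0.0249), while SHMT2, which passes carbon units from serine in mitochondria, fell by 1.01 (adjusted p = 0.0103). All 3 stood at the edge of the fold minimum and lost their calls without single arrays, GLUD1 without birth replicate 2 (0.97) or 135 d replicate 3 (0.76), PSPH without birth replicate 2 (0.94) or 3 (0.99) or 135 d replicate 2 (0.82) or 3 (0.96), and SHMT2 without birth replicate 2 (-0.81) or 135 d replicate 2 (-0.98). SHMT2 also lost its call with the 75th percentile scaling (-0.66). None of the 3 was called with the slide term (0.38, 1.43 and -1.08), and the further probes of GLUD1 (0.73 and 0.30) and SHMT2 (-0.88) did not pass.

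Lipid and sterol synthesis split. Of 12 tested genes 2 rose, 3 fell and 7 did not pass, with a median of 0.19. ME1, the malic enzyme that supplies reducing power for fat synthesis, read 9.46, 9.32 and 9.54 at birth against 7.32, 7.78 and 7.75 (3.54-fold, SE 0.155, adjusted p = 5.24e-05). SCD5, a fatty acid desaturase, read 10.60, 10.61 and 10.94 against 12.23, 12.30 and 12.09 (-1.49, SE 0.17, adjusted p = 1.64e-04). ACSS2, which activates acetate, the main short fatty acid of ruminants, read 7.34, 6.93 and 7.14 against 8.65, 8.20 and 8.46 (-1.30, SE 0.216, adjusted p = 0.0011), and came to -0.99 with the 75th percentile scaling. In each of these the 2 groups were separate. ACACA, the acetyl-CoA carboxylase that starts fatty acid synthesis, was not well above background on any birth array, so its fall is given as at least 1.57-fold (adjusted p = 0.0293), and its call was lost without birth replicate 1 (-0.75), 135 d replicate 1 (-1.04) or 135 d replicate 3 (-0.96) and with the 75th percentile scaling (-0.73). In all, 16 settings ended the ACACA call, among them the 6 arrays fitted alone (adjusted p = 0.0576) and all 40 arrays fitted (adjusted p = 0.125). Bounds given as at least a fold set the dim group at the lowest signal that counted as well above background on each array, or at the probe's own signal where higher. Allowing for slide, ME1 differed by 1.48 (adjusted p = 0.252), SCD5 by -2.29 (adjusted p = 0.0988), ACSS2 by -2.47 (adjusted p = 0.0582) and ACACA by -3.61 (adjusted p = 0.282). The second ACSS2 probe was called both ways (-1.21, and -2.24 with the slide term, adjusted p = 0.0323).

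Connective tissue genes on the list fell or did not pass. Of 15 tested genes of the extracellular matrix 3 fell, none rose and 12 did not pass, with a median of -0.58. The 3 were COL1A1 and COL1A2, the chains of type I collagen, and MMP2, a gelatinase. COL1A1 read 7.42, 7.24 and 7.65 at birth against 9.30, 8.83 and 9.50 (-1.77, SE 0.427, adjusted p = 0.0077). COL1A2 read 7.71, 7.55 and 8.12 against 9.31, 8.69 and 9.35 (-1.32, SE 0.37, adjusted p = 0.0157). Both chains were lower in every lamb at birth than in every fetus, and 135 d replicate 2 was the lowest fetus for both. COL1A2 lost its call without birth replicate 2 (adjusted p = 0.0504), 135 d replicate 1 (adjusted p = 0.0523) or 135 d replicate 3 (adjusted p = 0.0541). MMP2 fell by 1.24 (adjusted p = 0.00809), but its second probe gave 0.053, and the call was lost without birth replicate 2 (-0.94) and with the 75th percentile scaling (-0.89). The 5 tested fibroblast and tendon markers, which include both collagens, had 2 falls and 3 that did not pass. Their summed signal was 68700, 57400 and 73300 at birth against 109000, 122000 and 109000 at 135 d, and its part in the fall of the matrix genes was not tested. With the slide term COL1A1 differed by -2.16 (adjusted p = 0.444), COL1A2 by -2.24 (adjusted p = 0.371) and MMP2 by -1.31 (adjusted p = 0.349). Outside the list there were rises in FBLN1, a matrix protein (1.22, adjusted p = 4.02e-04), and MMP13, a collagenase (1.28, adjusted p = 0.0012). MMP7, not well above background in any fetus, rose at least 1.71-fold (adjusted p = 0.00237). With the slide term these 3 differed by 1.18, 0.29 and -2.07, none of them called.

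The 15 largest named falls include FGF7 and SPRY4, which stand outside the lists. FGF7, a fibroblast growth factor made by connective tissue cells, read 6.83, 6.72 and 7.08 at birth against 9.16, 8.85 and 9.12 (-2.17, SE 0.349, adjusted p = 9.21e-04), and its 3 other probes gave -2.11, -1.97 and -1.77. SPRY4, an inhibitor of that signalling whose level follows it, read 6.72, 6.32 and 6.66 against 8.49, 8.87 and 8.84 (-2.16, SE 0.217, adjusted p = 1.05e-04). The low values are shared by all 3 lambs in both genes. With the slide term FGF7 differed by -0.73 (adjusted p = 0.791) and SPRY4 by -1.15 (adjusted p = 0.481).

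A factor of oxygen sensing fell, and vessel genes moved both ways. HIF3A, a hypoxia-inducible factor of which several forms restrain the others, read 5.87, 4.95 and 6.4 at birth against 9.20, 8.56 and 8.46, a fall of 7.99-fold in size (-3.0, SE 0.318, adjusted p = 1.22e-04). Its second probe, which shares 59 of 60 bases, fell by 4.18 and was still called with the slide term (-3.47, adjusted p = 0.0156), while the first was not (-0.90, adjusted p = 0.667). Of 13 tested genes of angiogenesis and vessels 2 rose, 3 fell and 8 did not pass, with a median of -0.46. The falls were EDN1, the vasoconstrictor endothelin (-1.69, SE 0.264, adjusted p = 7.88e-04), FLT1, a VEGF receptor that also acts as a decoy (-1.30, SE 0.214, adjusted p = 0.00101), and TEK, the angiopoietin receptor (-1.04, SE 0.25, adjusted p = 0.00758). The rises were ANGPT1, the ligand of TEK (1.22, adjusted p = 0.00691), and EPAS1, the hypoxia-inducible factor of endothelium (1.07, adjusted p = 0.0112). Thus the ligand read higher and its receptor lower at birth. ANGPT1 lost its call without 135 d replicate 1 (0.89), EPAS1 without birth replicate 1 (0.76) or 135 d replicate 2 (0.92), and TEK without birth replicate 3 (-0.87) or 135 d replicate 2 (-0.88) and with the 75th percentile scaling (-0.68). Of the 2 further tested FLT1 probes 1 gave -0.79 and a dimmer one 1.46 (adjusted p = 0.138), and the 3 further EPAS1 probes gave 0.86, 0.59 and -0.085, none of them called. In the fit with slide as a term, none of the 5 was called, with -0.73 for EDN1 (adjusted p = 0.69), -1.28 for FLT1 (adjusted p = 0.442), -0.64 for TEK (adjusted p = 0.615), 1.0 for ANGPT1 (adjusted p = 0.589) and 0.40 for EPAS1 (adjusted p = 0.835). The 5 endothelial markers, SELE and TEK among them, had 1 rise, 1 fall and 3 that did not pass, and their summed signal was 1410, 1210 and 761 at birth against 1020, 1450 and 1260.

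**Figure D3:**
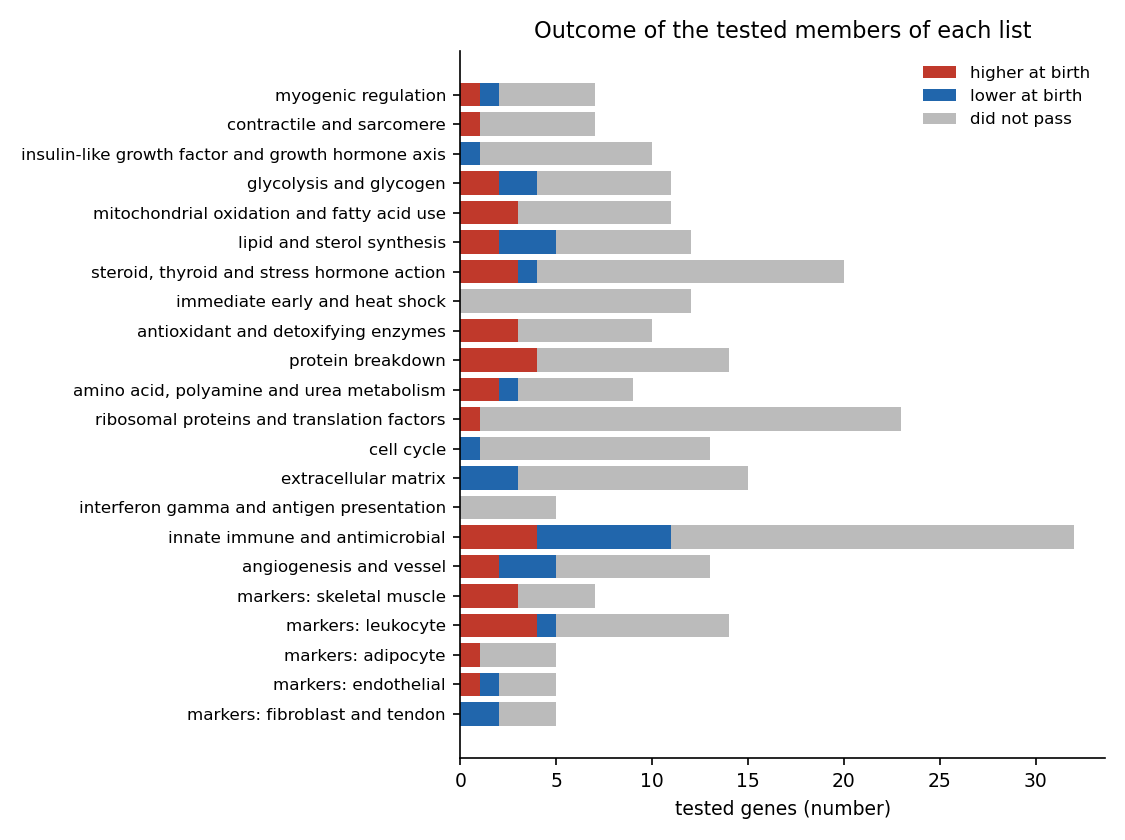
Bars give, for each list with at least 5 tested genes, how many were higher at birth (red), lower (blue) or did not pass (grey), beside 16% higher and 9.29% lower among all 861 named genes. Protein breakdown, at 4 of 14, and mitochondrial oxidation, at 3 of 11, hold only rises. So do antioxidant and detoxifying enzymes, at 3 of 10, and skeletal muscle markers, at 3 of 7. The extracellular matrix, at 3 of 15, and fibroblast and tendon markers, at 2 of 5, hold only falls. Lists with 1 call lie on 1 side as well.

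Innate immune genes moved both ways. Of 32 tested, 4 rose, 7 fell and 21 did not pass, with a median of -0.49. The largest rise was SELE, the selectin with which activated endothelium slows leukocytes. It read 5.64, 5.57 and 5.61 at birth and 1.47, 1.44 and 1.48 at 135 d, where no array was well above background, so the rise is at least 4.70-fold (adjusted p = 1.48e-05). On this probe all 3 lambs gave almost the same low signal, well above background, and no fetus did. A second SELE probe was not well above background on any birth or fetal array and was not tested. With the slide term the first probe missed the threshold narrowly (3.88, adjusted p = 0.0503). With a background correction that compresses low signals (normexp) its difference was 0.41, and the call was lost.

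The largest falls of the list were C3, PTX3 and PTGS2. C3, the central complement protein, read 8.43, 7.5 and 8.58 at birth against 10.40, 10.66 and 10.63 (-2.40, SE 0.299, adjusted p = 2.54e-04). PTX3, a soluble pattern receptor of tissue injury, read 6.32, 6.30 and 6.16 against 8.18, 8.43 and 8.67 (-2.16, SE 0.345, adjusted p = 8.75e-04). PTGS2, the inducible cyclooxygenase, read 7.61, 7.0 and 7.01 against 9.22, 9.35 and 9.41 (-2.12, SE 0.376, adjusted p = 0.00152). Every lamb at birth was below every fetus in all 3 genes, as in nearly all called probes that fell. A second C3 probe gave -2.78 and a second PTX3 probe -2.01, while a second, barely detected PTGS2 probe gave 0.63. Under the slide term, the sign of C3 (0.23, adjusted p = 0.959) and of PTGS2 (0.47, adjusted p = 0.883) turned, and PTX3 differed by -1.53 (adjusted p = 0.539). PTGFR, the receptor of prostaglandin F2 alpha, is outside the list and fell as well, from 7.24, 6.75 and 7.11 to 4.61, 3.38 and 3.88 (-3.07, SE 0.359, adjusted p = 1.91e-04), to a level that was well above background on 1 birth array. Its call was lost with the slide term (-0.61, adjusted p = 0.83).

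Leukocyte genes did not move as a block. Of 14 tested leukocyte markers 4 rose, 1 fell and 9 did not pass, with a median of -0.009, and their summed signal was 3660, 3760 and 3840 at birth against 2590, 3730 and 3380. Of the 4, CD40LG, the signal by which helper T cells activate B cells, read 6.03, 5.70 and 5.78 at birth against 3.63, 2.93 and 3.90, with no fetal array well above background (at least 4.66-fold, adjusted p = 2.38e-04). It was called with the slide term (4.58, SE 0.898, adjusted p = 0.00828), but its second probe, which rose at least 2.36-fold without the term, then differed by -0.16 (adjusted p = 0.96). CD4, the helper T cell receptor, was likewise not well above background in any fetus, and was well above it on 2 of 3 birth arrays. Its rise was at least 2.87-fold by the bound used here (adjusted p = 5.49e-05). With a floor of 16 in place of 1 before log2 the CD4 difference was 0.89, and the call was lost. TYROBP, an adaptor of myeloid receptors, read 10.55, 10.44 and 10.62 against 9.13, 9.29 and 9.52 (2.34-fold, SE 0.138, adjusted p = 1.55e-04). ITGAM, a myeloid integrin, rose by 1.25 (adjusted p = 0.0434) and lost its call without any single array but 135 d replicate 2, down to 0.65 without 135 d replicate 1. The 4 that rose are T cell and myeloid genes. The 1 that fell, CYBB, is a myeloid gene too. It read 5.32, 5.07 and 5.08 at birth against 5.89, 6.34 and 6.51 (-1.09, adjusted p = 0.00485). With the slide term the sign of CYBB turned (1.18, adjusted p = 0.574). The counts of 4 higher and 1 lower among 14 stand beside 16% higher and 9.29% lower among all named genes. Allowing for slide, CD4 differed by 0.75 (adjusted p = 0.919), TYROBP by 0.12 (adjusted p = 0.942) and ITGAM by 1.20 (adjusted p = 0.537). The second CD4 probe, which shares 59 bases with the first, rose at least 3.26-fold and was called with the slide term (3.52, adjusted p = 0.0488), while the second TYROBP probe did not reach the fold minimum (0.61, adjusted p = 0.00706).

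TLR7, a sensor of viral RNA, and IFNG, the interferon of T and natural killer cells, passed with and without the slide term, and IFNG was picked after its values were seen for that reason, as TLR7 was. TLR7 read 6.26, 6.75 and 6.48 at birth against 4.95, 5.19 and 5.31 (1.35, SE 0.232, adjusted p = 0.00131; 3.70 with the slide term). IFNG read 7.39, 7.49 and 7.51 against 6.07, 6.13 and 6.30 (1.30, SE 0.18, adjusted p = 4.33e-04; 3.46 with the slide term). The signals were low but close within each group. A second IFNG probe was not well above background on any of the 6 arrays and was not tested. With a background correction that compresses low signals (normexp, offset of 50) both lost their call, at 0.40 for TLR7 and 0.50 for IFNG. None of the 5 tested genes of the interferon gamma response and none of the 4 of the type I response passed with limma in either direction, with medians of -0.23 and -0.43. At an unadjusted p under 0.05 these counts were 1 and 0 in limma, and 1 and 0 at 2-fold by the methods' unequal variance test. CXCL10, a chemokine induced by interferon, read 6.31, 6.01 and 6.23 against 7.06, 8.21 and 7.83 (-1.52, adjusted p = 0.225) and was lower in each lamb at birth than in each fetus without passing, and with the slide term its sign turned (2.50, adjusted p = 0.755). Fitted on the 6 arrays alone it passed at an adjusted p of 0.0106.

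Immunoglobulin message rose at birth on a probe without a gene symbol whose entry is described as the sheep immunoglobulin alpha heavy chain. That probe, AF024645, read 10.72, 10.32 and 8.65 at birth against 5.48, 5.88 and 5.88 (17.8-fold, SE 0.499 log2 units, adjusted p = 2.15e-04). Birth replicates 1 and 2 were the highest and replicate 3, the male, was lower but still far above the fetuses. It was called with the slide term too (5.38, SE 1.26, adjusted p = 0.0261), and group means stayed at 9.71 at 1 month and 9.89 at 2 months. The kappa light chain IGKC, the only named immunoglobulin gene tested, rose 2.01-fold (SE 0.16, adjusted p = 8.73e-04), and its sign turned with the slide term (-0.63, adjusted p = 0.58). The IGKC call, just past the fold minimum, was lost without birth replicate 2 (0.94) or 3 (0.99) or without 135 d replicate 1 (0.89). The 3 further tested IGKC probes were called as well, at 1.20, 1.69 and 2.01, and with the slide term kept their sign (1.03, 1.75 and 0.93) without a call. The heavy chain probe is shown because its entry is all that names it.
AF024645: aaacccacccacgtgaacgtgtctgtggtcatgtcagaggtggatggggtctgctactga

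Several receptors and signalling genes outside the lists made up the rest of the named rises. HOMER, a scaffold of calcium signalling whose family member the files do not state, read 11.94, 11.93 and 11.52 at birth against 9.69, 9.20 and 9.44 (5.12-fold, SE 0.237, adjusted p = 1.05e-04). It differed by 2.55 with the slide term (adjusted p = 0.0717). NOS1, the neuronal nitric oxide synthase found under the muscle membrane, was not well above background in any fetus and rose at least 3.69-fold (adjusted p = 0.00165). HRH2, the histamine receptor of smooth muscle and stomach, read 11.89, 11.60 and 11.76 against 9.15, 9.96 and 10.05 (4.08-fold, adjusted p = 2.03e-04), and LOC443112, a mu opioid receptor, rose 4.15-fold (adjusted p = 2.23e-04). The slide term left 0.13 for HRH2 (adjusted p = 0.95), 0.93 for LOC443112 (adjusted p = 0.555) and 0.64 for NOS1 (adjusted p = 0.858). The second NOS1 probe, which shares 59 bases with the first, rose at least 4.0-fold and was called with the slide term (3.56, adjusted p = 0.0499).

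Among these rises are also genes better known from other organs. SFTPA1, a lung surfactant protein, read 7.52, 8.0 and 7.71 against 4.84, 5.2 and 5.27 (6.23-fold, adjusted p = 0.00254), while its second probe did not pass (1.25, adjusted p = 0.27). CAUXIN, a carboxylesterase, read 8.01, 5.93 and 6.27 against 4.35, 4.37 and 5.05 (4.41-fold, adjusted p = 0.00576), with birth replicate 1 well over its mates. The placental genes PAG9, a pregnancy-associated glycoprotein, and LOC443348, a pregnancy-specific antigen, read 6.10 to 7.72 and 5.99 to 6.74 at birth. PAG9 rose 5.38-fold (adjusted p = 0.0126) and lost its call without 135 d replicate 1 (adjusted p = 0.0506). LOC443348 rose at least 7.74-fold by the bound used here (adjusted p = 0.0238), and its second probe, at 0.97, did not pass. LOC443348 lost its call without birth replicate 1 (adjusted p = 0.0508) or 3 (adjusted p = 0.0653) or any 1 fetal array (adjusted p of 0.058, 0.057 and 0.0561 without replicates 1, 2 and 3). Its call was also lost with a floor of 16 in place of 1 before log2 (2.33, adjusted p = 0.0816). None of the 4 kept its call with the slide term, under which SFTPA1 differed by 2.08 (adjusted p = 0.361), CAUXIN by 3.40 (adjusted p = 0.0804), PAG9 by 2.45 (adjusted p = 0.533) and LOC443348 by 2.62 (adjusted p = 0.766). Further called pregnancy-associated glycoproteins went both ways. PAG6 rose by 1.20 (adjusted p = 0.00134) and PAG11 by 1.18 (adjusted p = 0.00119), while PAG8 fell at least 1.73-fold (adjusted p = 0.00209), with no birth array well above background. Under the slide term these differed by 2.41, 1.40 and -3.36, none of them called. Signals of the placental genes were low, and whether the probes read the named gene in muscle was not tested.

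The remaining named falls began with OSTN, the muscle-secreted peptide musclin, also called osteocrin. It read 6.37, 6.92 and 5.57 at 135 d and was not well above background in any lamb at birth, a fall of at least 4.76-fold (adjusted p = 0.00202). In the Texel arrays beside each group it varied from 6.62 to 12.82 on slide 1 and from 4.66 to 10.84 on slide 5, and the slide term left -0.22 (adjusted p = 0.984). SERPINA1, the antitrypsin of plasma, read 5.88, 4.42 and 4.04 at birth against 8.07, 7.73 and 7.61 (-3.02, SE 0.616, adjusted p = 0.00326). LOC100101238, a regakine 1-like chemokine, read 8.40, 8.39 and 7.42 against 10.35, 11.51 and 10.45 (-2.70, SE 0.554, adjusted p = 0.00337). Both genes were lower in every lamb at birth, but the slide term turned their sign, to 0.82 (adjusted p = 0.862) and 5.37 (adjusted p = 0.154), while the second SERPINA1 probe kept it (-1.1, adjusted p = 0.827). CRYBB3, a lens crystallin, fell by 2.71 (adjusted p = 0.00722), to a level that was well above background on 1 birth array, and EM4C by 2.10 (adjusted p = 7.49e-04). TFAP2A, a transcription factor of neural crest and skin, fell at least 1.83-fold (adjusted p = 0.0222), and lost its call without birth replicate 1 (adjusted p = 0.0723) or 2 (adjusted p = 0.0728) or 135 d replicate 1 (adjusted p = 0.0814) and with the 75th percentile scaling (adjusted p = 0.0576). Under the slide term CRYBB3 differed by -3.0 (adjusted p = 0.328), EM4C by -1.51 (adjusted p = 0.602) and TFAP2A by -2.93 (adjusted p = 0.376), with no call. ITM2B, a membrane protein picked after its values were seen because it passed with the slide term too (-1.88, adjusted p = 0.0499), read 14.47, 14.40 and 14.24 against 15.68, 15.90 and 15.65 (-1.38, SE 0.194, adjusted p = 4.67e-04).

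TERT, the catalytic subunit of telomerase, cannot be given a direction. Its brighter probe read 4.43, 3.41 and 4.10 at birth against 8.27, 6.10 and 6.99 (-3.14, SE 0.46, adjusted p = 5.62e-04). The other probe read 5.39, 5.25 and 5.57 against 3.23, 4.21 and 3.78 (1.66, SE 0.271, adjusted p = 9.77e-04). Neither was called with the slide term (-6.14, adjusted p = 0.0767, and 3.71, adjusted p = 0.121). Without it both pass, in opposite directions, although the 2 probes share 58 of their 60 bases, and both are shown for that reason, the brighter first.
TERT brighter probe: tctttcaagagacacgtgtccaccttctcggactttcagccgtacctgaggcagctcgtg
TERT second probe: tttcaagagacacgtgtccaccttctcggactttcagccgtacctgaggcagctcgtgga

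Most gene pairs of this array agreed better than TERT did. Of 416 named genes with 2 tested probes, 347 had both probes on the same side of zero, with a median gap of 0.232 log2 units between them. In 66 genes both probes passed, and TERT was the 1 gene of these with opposite signs; genes with more than 2 tested probes were not counted. In 75 genes 1 probe passed and the other did not. Where the pair shared a run of at least 50 bases, as in 213 genes, the median gap was 0.197, against 0.282 in the other 203. So for most genes the choice of probe moved the difference by less than the fold minimum.

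Among probes without a name some falls were larger than any called fall of a named gene, and no rise exceeded that of CYP1A1. EE757792 read 11.92, 10.92 and 11.10 at birth against 4.70, 7.42 and 7.46 (4.79, SE 1.702, adjusted p = 0.0433), and its call was lost whichever 1 of the 6 arrays was left out, at adjusted p between 0.0642 and 0.138. CO202856 fell from 9.91, 9.56 and 10.60 to 2.90, 1.73 and 4.23 (-7.07, SE 0.585, adjusted p = 4.72e-05), with 1 birth array well above background. FE035151 fell from 8.94, 8.86 and 9.53 to 4.18, 1.37 and 4.09 (-5.90, SE 0.629, adjusted p = 1.25e-04), with 2 birth arrays well above background. Their means were 7.67 and 6.95 at 1 month and 9.12 and 8.38 at 2 months. With the slide term the 3 probes differed by 5.97 (adjusted p = 0.52), -6.75 (adjusted p = 0.107) and -7.39 (adjusted p = 0.101).

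Blood and fat in the samples were read from their own markers. Of 4 tested erythroid markers 1 rose and 3 did not pass, and their summed signal, in which the hemoglobin chain HBB was brightest, was 9720, 91100 and 79200 at birth against 100000, 139000 and 93000. HBB read 13.15, 16.47 and 16.26 against 16.61, 17.08 and 16.50 (-1.43, SE 0.877, adjusted p = 0.208), so birth replicate 1 alone was low. CA1, the carbonic anhydrase of red cells, was well above background on 1 fetal array and on none at birth. EPOR, the erythropoietin receptor, was the 1 that rose (2.09-fold, adjusted p = 0.00282), with a sign that turned with the slide term (-0.31, adjusted p = 0.88) and a call lost without birth replicate 3 (0.99) or 135 d replicate 1 (0.93). Of 5 adipocyte markers LEP rose and 4 did not pass. One of the 4, PLIN1, a coat protein of fat droplets, gave 0.63 on the probe with the higher mean over 40 arrays. It passed on a second (1.16, adjusted p = 3.19e-04), which read higher than the first on all birth arrays. Another was FABP4, the fatty acid carrier of adipocytes, at 8.40, 7.10 and 11.16 against 9.46, 7.87 and 7.41. FABP4 was high in birth replicate 3 only, and LEP was equally high in all 3, so these 2 adipocyte genes did not move together. The summed signal of the 5 was 8710, 6910 and 10200 at birth against 9560, 8750 and 7480. The single tested markers of smooth muscle (CNN1, -0.54), nerve (GFAP, 0.94) and epithelium (SFN, 0.40) and of calcium handling (CALM2, 0.11) did not pass, though GFAP was past the fold minimum with the 75th percentile scaling (1.14) and its second probe passed (1.1, adjusted p = 0.00623). No sex-linked gene of the list could be found by name on the array, but the study assigns a pair of unnamed probes to XIST, the transcript of the inactive X chromosome, and USP9Y, a gene of the Y chromosome. The XIST probe read at least 5.667 on all 23 arrays labelled female and at most 2.64 on all 17 labelled male. The USP9Y probe read at most 5.103 on the female arrays and at least 12.329 on the male ones. The labelled sex thus matched on 40 of 40 arrays. At birth the USP9Y probe read 2.69, 3.44 and 12.33, high in the male replicate 3 only.

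The levels at 1 and 2 months, from the same fit, are set beside those at birth. Contrasts with them share arrays with the comparison of birth and 135 d, so no overlap of calls is given. UCP3 stood at 13.25 at 1 month and 14.20 at 2 months, MB at 17.98 and 18.14 and SLC25A20 at 9.42 and 9.98, all over their fetal means. Their means had begun to climb before birth, from 3.60 at 70 d to 9.47 at 120 d for UCP3 and, between 100 and 120 d, from 12.25 to 13.80 for MB and from 6.73 to 7.26 for SLC25A20. MB and SLC25A20 had first declined, from 12.92 and 7.18 at 70 d. At 1 month SLC25A20 was lower than at birth by 1.05 (adjusted p = 0.0109). HIF3A stayed low, at 5.75 and 5.83, and so did OSTN, at 2.44 and 2.56. In contrast C3 was back at 10.60 and 11.19 and PTGS2 at 9.65 and 10.80, while FGF7, at 8.12 and 8.54, stood between its means at birth and at 135 d. CYP1A1 was still 12.91 at 1 month and then 7.53 at 2 months. The 2 month arrays share slide 5 with the fetuses, so a contrast of these groups lies within 1 slide, and its fetal arrays are the same. On that slide UCP3 differed by 4.31 between 2 months and 135 d (adjusted p = 2.79e-04), MB by 2.62 (adjusted p = 3.13e-04), SLC25A20 by 1.55 (adjusted p = 8.33e-04), FBXO32 by 3.36 (adjusted p = 7.37e-04), THRB by 2.56 (adjusted p = 1.25e-04), HIF3A by -2.91 (adjusted p = 2.86e-04) and CDKN1C by -1.51 (adjusted p = 1.95e-04). Other genes called at birth differed little on that slide or the other way, such as LEP by 0.24 (adjusted p = 0.198), SLC2A3 by 0.13 (adjusted p = 0.87), PTX3 by 0.30 (adjusted p = 0.536), MT3 by -0.49 (adjusted p = 0.14), FLT1 by 0.68 (adjusted p = 0.0321) and PTGS2 by 1.48 (adjusted p = 0.0134). These within-slide values concern an older animal and not birth itself.

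**Figure D4:**
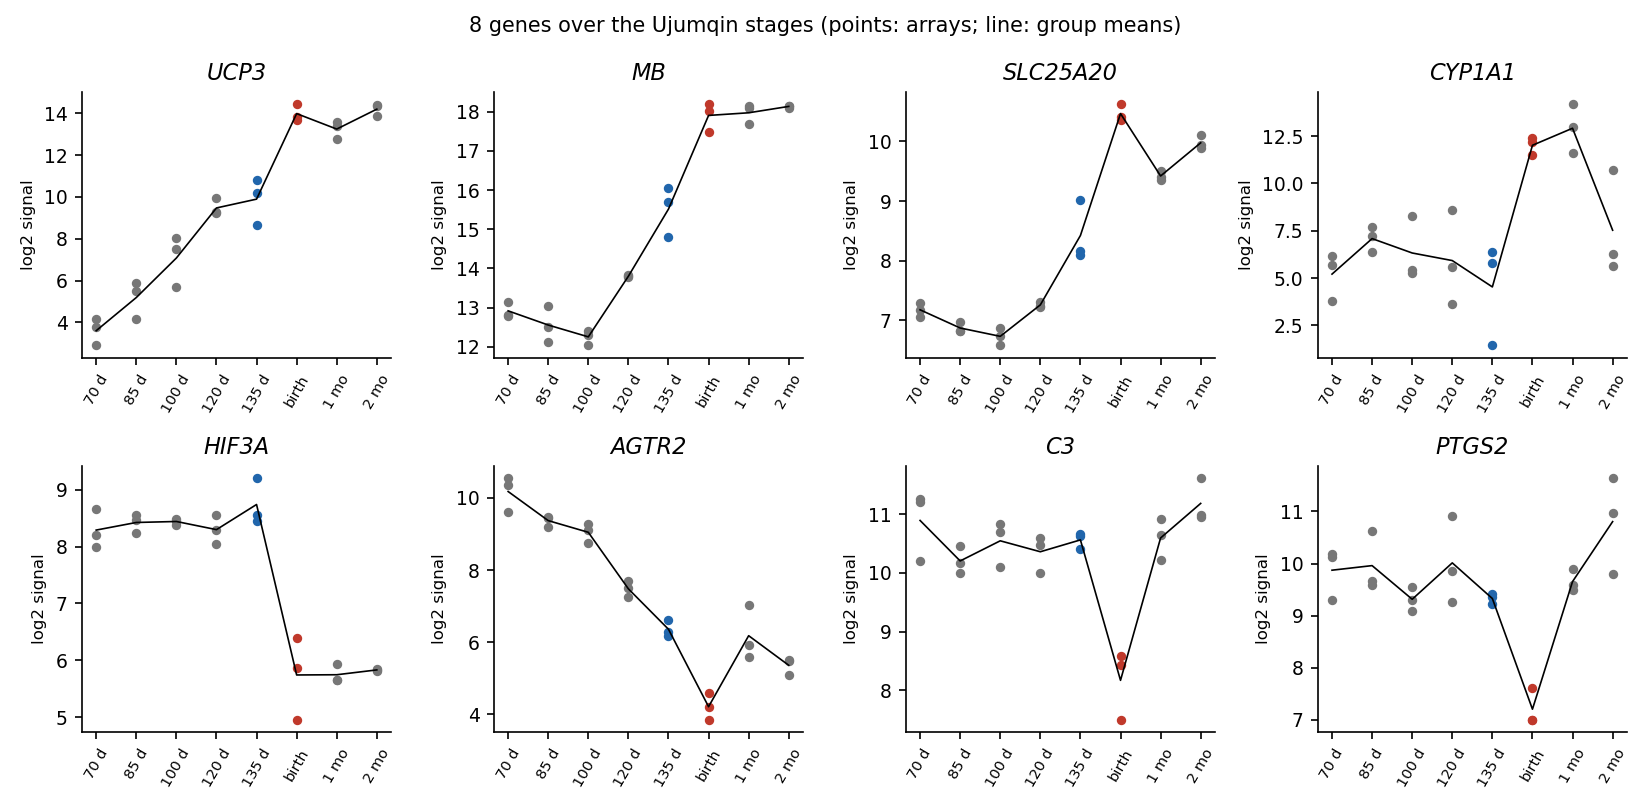
Log2 signal of 8 genes on each Ujumqin array from 70 d of gestation to 2 months (points), with group means joined by lines, 135 d in blue and birth in red. UCP3, MB and SLC25A20 climb before birth and stand above every fetal mean from birth on, HIF3A steps down and stays down, and C3 and PTGS2 dip at birth to means of 8.17 and 7.21 before they return.

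**Figure D5:**
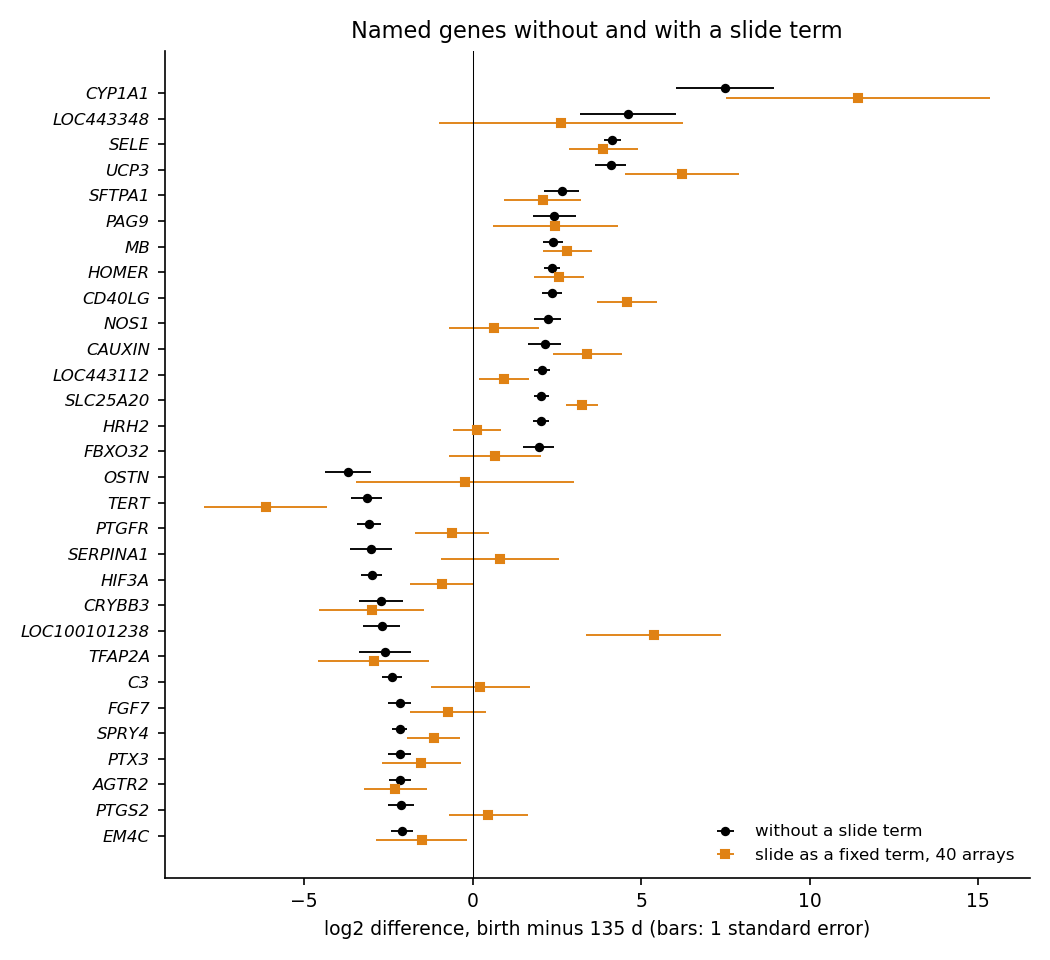
Log2 difference of birth minus 135 d for the 30 named genes, with bars of 1 standard error, without a slide term (black circles) and with slide as a fixed term over 40 arrays (orange squares). MB, CD40LG and SLC25A20 are called both ways, 23 others keep their sign, and 4 cross zero, SERPINA1 at 0.82, LOC100101238 at 5.37, C3 at 0.23 and PTGS2 at 0.47.

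The fit with slide called 8 named genes higher and 2 lower. They were CHI3L1, CD40LG, TLR7, IFNG, SLC25A20, MDH, MB and PFKM, and ITM2B and CDKN1C. CHI3L1, a secreted chitinase-like protein, is the exception among them, since it read 9.0, 7.88 and 9.78 at birth against 7.26, 8.95 and 8.01, overlapping groups, and differed by 0.81 without the term (adjusted p = 0.24) and by 6.79 with it (adjusted p = 0.0326). The other 9 passed both ways, each on its representative probe. Second probes passed both ways for PFKM (2.29 with the term) and TLR7 (5.13), and not with the term for MB, MDH and CD40LG.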

How the data were processed

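Scanner output was deposited for each of the 40 arrays, with spot signals as intensity values that the authors' Agilent Feature Extraction (10.5 in the submitters' processing notes, 10.5.1.1 per the file headers) had corrected for background and trends within each array. The deposited table of normalized values is in log2 units with the same median in every column and served as an alternative. From the processed intensity, outlier spots were dropped, spots of a probe averaged, all 40 arrays quantile normalized, a floor of 1 applied and log2 taken.

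Probes that any of the 6 arrays marked as well above background were tested with limma 3.58.1 in R 4.3.3, with data.table at version 1.17.8, in 1 fit over the 12 Ujumqin arrays from 135 d to 2 months, with Benjamini-Hochberg adjustment over all tested probes. Python 3.11.15, pandas 2.3.3 and matplotlib 3.10.9 were used for names and figures. The code was tested on simulated data. Names came from the files, and 1340 of 1605 named probes matched the RefSeq genes of assembly ARS-UI_Ramb_v3.0, with 91 more through an alias and 174 kept as the files give them; the other 13403 have no name. A gene is represented by the probe with the highest mean over 40 arrays.

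Named genes are up to 15 per direction with the largest difference among those called, not overlapping and well above background on all 3 arrays of the brighter group, up to 4 called members of each list by the size of their difference, with up to 2 not passing where fewer than 2 passed, and up to 2 unnamed probes per direction. The groups, lists and members were chosen with earlier results of these data known. Alternatives changed the scaling, the arrays normalized and fitted, background, filter, floor, test, thresholds, slide, sex, weights, replicate block and each array left out.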

Additional observations from a re-analysis of the deposited data

How the results depend on the processing

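The counts of probes higher and lower at birth, 1417 and 1229, and of named genes, 138 and 80, moved by over 1.5 times under few settings, and the causes were not tested except where the setting itself gives one. Scaling to the 75th percentile gave 2280 probes higher and 53 genes lower, with 72.7% of called probes higher against 53.6% and a median shift of 0.211. Normexp background with an offset of 50, which by construction compresses low signals, gave 650 and 493 probes and 50 and 27 genes. Slide as a fixed block gave 132 and 81 probes and 8 and 2 genes, with wider standard errors, while slide as a random block gave 1456 and 1276 probes (correlation within slides 0.0432). The unequal variance test of the study's methods gave 1244 and 1061 probes and 118 and 67 genes at an unadjusted p under 0.05 and 2-fold, all of them with an adjusted p under 0.4, and 661 and 473 probes and 55 and 22 genes after adjustment. Without a fold minimum there were 2946 and 2807 probes and 225 and 149 genes. An adjusted p under 0.01 left 53 genes lower. Requiring signal well above background on all 6 arrays, a setting added after seeing the data, left 52 genes lower from fewer tested.

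Of the 101 single genes and probes followed through every setting, 76 were called. Signs turned for 8 of the 76, all with slide as a fixed block: SERPINA1 to 0.82, LOC100101238 to 5.37, C3 to 0.23, PTGS2 to 0.47, IGFBP6 to 0.01, ESR2 to -1.13, EPOR to -0.31 and IGKC to -0.63. Under that block 66 of the 76 lost their call, these 8 included, and 10 kept it. Normexp ended 39 calls, and the methods' test 9 at an unadjusted p under 0.05 and 40 after adjustment. Sex as a covariate ended 5 calls: ACACA (-1.08), GLUD1 (0.99), ITGAM (1.31), TEK (-0.93) and EE757792 (5.06). A floor of 16 in place of 1 also ended 5: LOC443348 (2.33), TFAP2A (-0.91), ACACA (-0.66), CD4 (0.89) and ITGAM (0.93). Among the 25 that were not called, signs turned for 9 under the slide block (MYH7, BEGAIN, HSPA1A, FOS, RTP4, ISG15, CXCL10, OLA-DRB1 and GFAP), for BEGAIN with the 75th percentile scaling as well, and for FABP4, CALM2 and CA1 without single arrays (to -0.50, -0.07 and 0.10).

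Leaving out 1 array at a time gave 1304 to 1498 probes higher and 1109 to 1305 lower. The replicate block gave 1404 and 1212 probes and 137 and 82 genes. The numbers do not pair the samples: deviations of same-numbered samples correlated at -0.043, -0.0244 and -0.00192, and not every sample correlated best with its own number. The deposited table gave 1416 and 1266 probes. For 1429 probes no array was well above background, and changes among them could not be seen.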
